A study of Arabidopsis thaliana with 24 samples.

Results

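The comparison described here set seedlings of the Arabidopsis thaliana line mpk11 against seedlings of the wild-type accession Col, both without elicitor. It rests on the 12 arrays labelled mock of the 24 arrays of the study, 6 of mpk11 and 6 of Col, and each mpk11 array was compared with the Col array of the same time and the same set number. The mpk11 line, given as SALK049352, carries an insertion in the gene MPK11, which encodes a MAP kinase. It is represented by this 1 line, and no second allele or rescued line was analysed here. The 4 groups were mpk11 mock at 30 min, mpk11 mock at 3 h, Col mock at 30 min and Col mock at 3 h, each with 3 arrays numbered as sets 1 to 3. All seedlings were 10 days old, grown in MS medium with 12 h of light and 12 h of dark at 22 °C, and had been moved to fresh liquid medium 48 h before water was added. The other 12 arrays hold the same genotypes and times with 1 µM flg22 in place of water. They are used below to show the same genes in arrays that played no part in naming them. The genotype difference with flg22 over all probes, and its difference from that in mock, are also given. Nothing in the labels says that the sets were separate experiments, so the p-values measure the spread between these arrays, which may be technical.

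MAP kinases are the last step of a chain of protein kinases that passes signals from receptors at the cell surface to proteins in the cell. In Arabidopsis, recognition of flg22, a peptide of bacterial flagellin, switches on several MAP kinases within minutes, among them MPK3, MPK6, MPK4 and MPK11, and MPK11 is the closest relative of MPK4. Plants that lack MPK4 show defence genes that are active without a pathogen. The comparison addresses the unelicited state of a line in this related kinase.

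The spotted array held 576 probes. A gene was given for 181 of them, and 395 are unnamed here. All values are the deposited log values, and every difference below is mpk11 minus Col on that scale. They run between 0.450 and 11.4 and were taken as log2, though this range does not settle the base. No named probe belonged to MPK11 or to another gene of the MAP kinase list, and the genotype labels could not be checked by the transcript. The RNA was labelled as coming from leaves. Of the leaf markers, LHCB4.3, a light-harvesting protein of the chloroplast, was the single one among the named probes, with 3.50 ± 0.43 in mpk11 and 3.57 ± 0.36 in Col (SD, n = 6), and no root marker was named. The tissue could therefore be checked on 1 gene alone. Because the samples are whole tissue, fewer cells of a type and less RNA per cell cannot be told apart in any result below.

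On average over the 6 pairs, the mock arrays of mpk11 and Col differed little on the 576 probes. No probe passed the test between them, and the differences of single genes were mostly small: the median of all 576 differences was -0.05, with quartiles at -0.14 and 0.03, and the extremes were -0.59 and 0.30. The named genes with the smallest p were the transcription factor gene AT1G10585, AT-HF of histidine synthesis, the defensin gene PDF1.2, AT4G17470, the glutathione transferase gene GSTF3 and the zinc-finger gene STZ, and of the first 10 such genes 9 were lower and 1 was higher in mpk11.

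In limma's test with the pair of arrays as a block, 0 of 576 probes (0%) had an adjusted p below 0.05, and the smallest adjusted p was 0.298. Without adjustment 43 probes had a p below 0.05. Of these, 41 were lower in mpk11, 7.12% of the probes, and 2 were higher, 0.347%. In all, 378 probes (65.6%) were lower and 198 higher in mpk11. This lean to one side was not kept under other scalings of the arrays. Such scalings even out the arrays by construction, so they would also remove a small difference shared by most probes. The more even counts under them, here and below, therefore cannot show whether the lean came from the arrays or the genotypes. After centring each array on its median, 266 probes were lower and 310 higher, and the unadjusted calls were 14 lower and 10 higher. Quantile normalization gave 264 lower and 312 higher, with 16 and 9 unadjusted calls. Without the 3 h set 2 pair 2 unnamed probes passed, at -0.55 and -0.64 (limma adjusted p = 0.0461), and 86 had an unadjusted p below 0.05.

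The absence of calls does not show that the genotypes were alike, so the intervals matter. The 95% interval of a probe's difference reached 0.240 to either side at the median and 0.362 at the 90th percentile. For 500 of the 576 probes the whole interval lay within 0.5 of zero, and for 574 within 1. If the values are log2, these bounds are folds of 1.41 and 2. Among the 181 named probes these counts were 156 and 181. Only 3 probes had a difference of 0.5 or more in size, and 0 reached 1. All these counts are for both times together, where opposite differences at the 2 times cancel. At 30 min alone 25 probes had a difference of 0.5 or more and 2 reached 1. At 3 h alone these counts were 5 and 0. The whole interval lay within 0.5 of zero for 294 probes at 30 min and 329 at 3 h, and within 1 for 551 and 570.

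The 6 pairs of arrays gave a varied picture. At 30 min the median difference was -0.04 in set 1, -0.08 in set 2 and -0.05 in set 3. At 3 h it was -0.09 in set 1, -0.00 in set 2 and -0.09 in set 3. The set 1 pair at 30 min stood apart by its spread. Its differences had an SD of 0.563 over the probes, against 0.219 to 0.333 in the other 5 pairs, and 39 probes differed by 1 or more, against 0 to 5.

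Of the 12 mock arrays, the Col array of that pair lay farthest from the other arrays of its group, with an SD of 0.481 against 0.260 to 0.411 for the rest. The mpk11 array of the same pair had 0.394, and the mpk11 array of set 2 at 30 min had 0.411. At 30 min 2 unnamed probes read 4.35 to 5.26 on the mpk11 arrays, against 8.55 and 8.84 on this Col array and 4.41 to 5.06 on the other Col arrays. In the fit of both times together, these 2 probes alone had intervals that reached past 1. Without the pair, limma called 0 probes, 59 had an unadjusted p below 0.05, 54 of them lower in mpk11, and the median difference was -0.07.

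**Figure D1:**
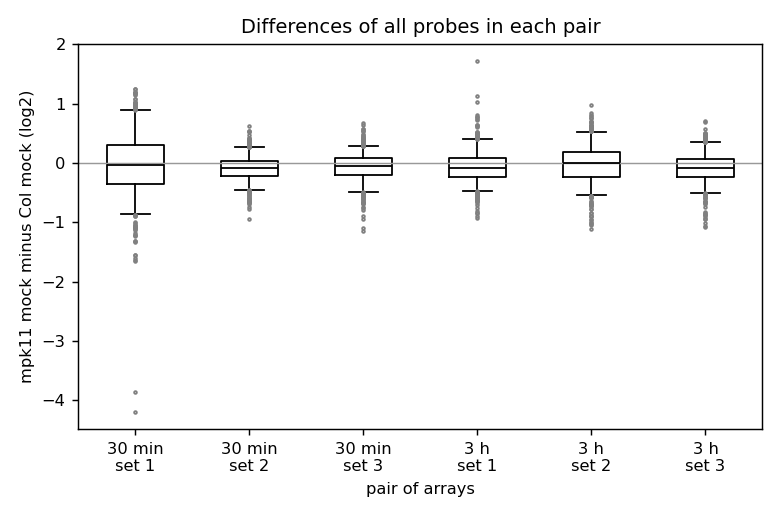
Differences mpk11 mock minus Col mock (log2) of all 576 probes, in each of the 6 pairs of arrays. Boxes show the quartiles and the median, whiskers the 5th and 95th percentiles and dots the probes beyond them; the box of the 30 min set 1 pair is the widest, with an SD of 0.563, and its lowest probes lie at -4.19 and -3.86.

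Few probes kept 1 sign in all pairs. Over the probes, the 15 correlations between 2 pairs ran between -0.353 and 0.415 with a median of -0.01, as a description across probes that share arrays and are not independent. In mpk11, 31 probes (5.38%) were lower in all 6 pairs and 1 probe (0.174%) was higher in all 6. Under the other scalings the counts were nearer to each other, with 8 lower and 9 higher in all 6 pairs after median centring and 8 lower and 11 higher after quantile normalization. Without the 30 min set 1 pair, 57 probes (9.90%) were lower in all 5 remaining pairs and 4 were higher. Probes of 1 sign in all 6 pairs keep it in any 5, so such counts cannot fall when a pair is left out. No probe had all 6 mpk11 arrays below, or all 6 above, the 6 Col arrays (0% each way). The 31 probes had a median difference of -0.23, between -0.56 and -0.11. They lay mostly among dim probes: with the 576 probes split by mean level into 3 equal classes, 17 were in the dim class, 7 in the middle class and 7 in the bright class.

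Over all probes the lean to lower values was also larger among dim ones. In the dim class 73.4% of the probes were lower in mpk11, with a median difference of -0.07. In the middle class the share was 67.2% and the median -0.05. In the bright class the share was 56.3% and the median -0.02. After median centring the shares were 50.5%, 45.3% and 42.7%, and after quantile normalization 47.9%, 44.8% and 44.8%. The median half-width of the intervals was 0.217, 0.240 and 0.272 in these classes, so dim probes did not have the wider intervals. The part of scanner background in this was not tested, since no background values were used here.

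The array medians themselves differed by -0.06 ± 0.118 (SD, n = 6 pairs), and mpk11 was lower in 4 of 6 pairs (exact two-sided sign-flip permutation test, p = 0.281). The array means differed by -0.06 ± 0.0291 and were lower in 6 of 6 pairs, with p = 0.03125 in the same exact test, the smallest that 6 pairs can give. The difference of the medians rested on set 3: it was -0.10 without set 1, -0.09 without set 2 and -0.0081 without set 3. In that last case mpk11 was lower in 2 of 4 pairs (p = 1 in the exact test). A shift of whole arrays and a small shared difference of the genotypes cannot be told apart here.

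The gene with the smallest p among the named probes was AT1G10585, which encodes a transcription factor of the bHLH family. At 30 min it read 3.03, 2.68 and 2.86 in mpk11 (sets 1 to 3) and 3.60, 2.88 and 3.20 in Col. At 3 h it read 2.77, 2.42 and 2.80 in mpk11 and 3.01, 2.65 and 3.04 in Col. Every mpk11 array was below the Col array of its own pair, but the groups overlapped at each time, as the sets differed too. The mean was 2.76 ± 0.20 in mpk11 and 3.06 ± 0.32 in Col (SD, n = 6), a difference of -0.31 (SE 0.083; 95% interval -0.49 to -0.12; limma adjusted p = 0.445).

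AT-HF (AT4G26900, also HISN4), an enzyme gene of histidine synthesis, was the single gene of the 10 with a higher value in mpk11. The 30 min values were 3.27, 3.45 and 3.27 in mpk11 and 3.03, 3.46 and 2.77 in Col. The 3 h values were 3.71, 3.43 and 3.80 in mpk11 and 3.30, 3.23 and 3.32 in Col. At 3 h all 3 mpk11 arrays were above all 3 Col arrays, as for 14 probes (2.43%) at that time, and at 30 min the groups overlapped. The means were 3.49 ± 0.22 in mpk11 and 3.19 ± 0.25 in Col (SD, n = 6), a difference of 0.30 (SE 0.093; 95% interval 0.09 to 0.51; limma adjusted p = 0.522).

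PDF1.2 (AT5G44420), a plant defensin gene widely used as a marker of jasmonate and ethylene signalling, had the lowest difference of the named genes. At 30 min it read 3.76, 4.21 and 3.51 in mpk11 and 4.64, 4.004 and 4.07 in Col. At 3 h the arrays gave 4.03, 4.20 and 4.02 in mpk11 and 4.73, 4.22 and 5.11 in Col. At 3 h all 3 mpk11 arrays were below all 3 Col arrays, as for 35 probes (6.08%) at that time, though the set 2 arrays differed by -0.02. At 30 min the groups overlapped and the set 2 pair went the other way. The means were 3.95 ± 0.27 in mpk11 and 4.46 ± 0.44 in Col, a difference of -0.51 (SE 0.165; 95% interval -0.88 to -0.14; limma adjusted p = 0.522). Without the 30 min set 1 pair it was -0.43, and without set 2 at both times -0.81.

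AT4G17470, which encodes a protein of the alpha/beta-hydrolase kind, was the single named probe with no overlap at either time. The 30 min values were 2.61, 2.64 and 2.61 in mpk11 and 3.11, 3.04 and 2.80 in Col. At 3 h it read 2.49, 2.41 and 2.48 in mpk11 and 2.64, 2.62 and 2.58 in Col. All mpk11 arrays were below all Col arrays at each time, as for 2 of the 576 probes (0.347%), the other being unnamed here. AT4G17470 was no longer among them after median centring, which left 0 such probes, or quantile normalization, which left 1. The means were 2.54 ± 0.09 in mpk11 and 2.80 ± 0.23 in Col, a difference of -0.26 (SE 0.086; 95% interval -0.45 to -0.06; limma adjusted p = 0.522). Its level lay in the dim class of the array. Probes of an array often shared a value, with 311 to 405 distinct values per array of the study over the 576 probes. The part of such ties in small gaps, here and for other dim genes, was not tested.

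GSTF3 (AT2G02930), a glutathione transferase gene of the phi class, encodes an enzyme that joins glutathione to reactive compounds. At 30 min it read 7.09, 6.04 and 6.76 in mpk11 and 7.93, 6.99 and 6.97 in Col. The 3 h values were 6.67, 5.94 and 5.86 in mpk11 and 6.78, 5.95 and 6.17 in Col. It was lower in mpk11 in all 6 pairs, most clearly in sets 1 and 2 at 30 min, and the groups overlapped at both times. The difference was -0.40 over both times (SE 0.137; 95% interval -0.71 to -0.10; limma adjusted p = 0.522), and -0.32 without the 30 min set 1 pair.

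STZ (AT1G27730), which encodes the zinc-finger repressor ZAT10 of stress responses, was lower in mpk11 in all 6 pairs as well. The 30 min values were 2.25, 1.94 and 2.60 in mpk11 and 2.45, 2.47 and 2.68 in Col. At 3 h the arrays gave 2.37, 2.23 and 2.48 in mpk11 and 2.73, 2.36 and 2.76 in Col. The groups overlapped at both times. The means were 2.31 ± 0.23 in mpk11 and 2.57 ± 0.17 in Col, a difference of -0.26 (SE 0.088; 95% interval -0.46 to -0.06; limma adjusted p = 0.522).

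AT2G29500, a small heat shock protein gene, read 3.73, 3.75 and 4.16 in mpk11 at 30 min and 4.43, 4.22 and 4.51 in Col. At 3 h it read 3.78, 3.14 and 3.17 in mpk11 and 3.86, 3.00 and 3.77 in Col. The 30 min mpk11 arrays were all below the Col arrays, as for 47 probes (8.16%), and at 3 h the set 2 pair went the other way. The difference was -0.34 (SE 0.119; 95% interval -0.61 to -0.08; limma adjusted p = 0.522), and -0.27 without the 30 min set 1 pair.

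AT2G36690, a gene of the 2-oxoglutarate-dependent dioxygenase family, read 2.81, 2.85 and 2.87 in mpk11 at 30 min and 3.06, 2.90 and 3.02 in Col. The 3 h values were 2.97, 2.69 and 3.09 in mpk11 and 3.30, 3.01 and 3.35 in Col. It was lower in mpk11 in all 6 pairs, without overlap at 30 min and with overlap at 3 h. The difference was -0.23 (SE 0.079; 95% interval -0.40 to -0.05; limma adjusted p = 0.522).

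AT1G23040 read 3.71, 3.47 and 4.11 in mpk11 at 30 min and 4.24, 3.69 and 4.12 in Col. At 3 h the arrays gave 3.75, 3.50 and 3.85 in mpk11 and 4.04, 3.97 and 3.92 in Col. It was lower in mpk11 in all 6 pairs and without overlap at 3 h, while set 3 at 30 min differed by -0.01. The difference was -0.26 (SE 0.095; 95% interval -0.48 to -0.05; limma adjusted p = 0.536).

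AT2G38870, a proteinase inhibitor gene, read 4.40, 4.80 and 4.83 in mpk11 at 30 min and 5.39, 4.88 and 5.22 in Col. At 3 h it read 4.50, 4.55 and 4.36 in mpk11 and 4.84, 4.45 and 4.71 in Col. The 30 min groups did not overlap, and 5 of 6 pairs were lower in mpk11. The difference was -0.34 (SE 0.131; 95% interval -0.63 to -0.05; limma adjusted p = 0.536). Without the 30 min set 1 pair, which held its widest gap, it was -0.21, so that 1 pair moved the value by more than 1.5 times. Over all left-out sets and pairs it ran between -0.52 and -0.18.

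**Figure D2:**
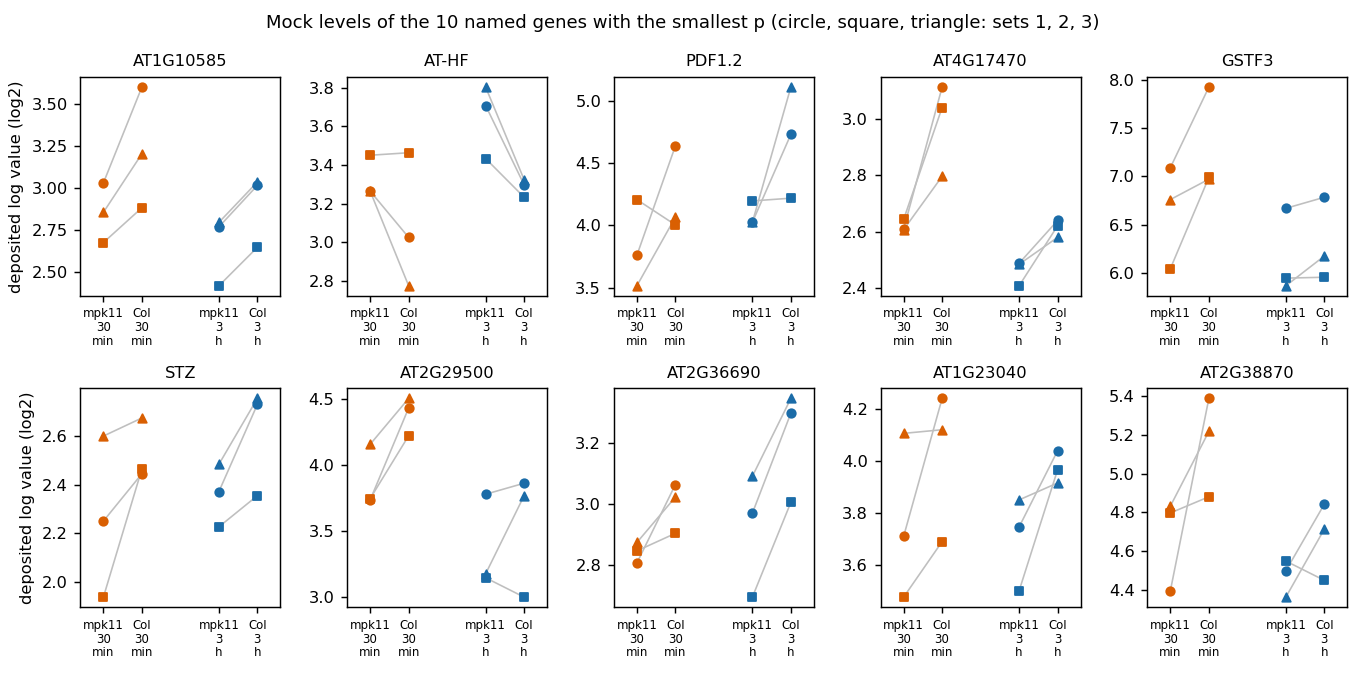
Deposited log values (log2) on the mock arrays of the 10 named genes with the smallest p, with mpk11 left of Col at 30 min (orange) and at 3 h (blue); grey lines join the arrays of 1 pair. In AT4G17470 the mpk11 points lie below the Col points at both times, while in AT-HF they lie above them at 3 h.

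Of the 31 probes lower in mpk11 in all 6 pairs, 11 had a gene name. They were AT1G10585, AT4G17470, GSTF3, STZ, AT2G36690 and AT1G23040 from above, AT2G18690 with -0.22, AT4G24350 with -0.22, AT1G67350 with -0.19, WRKY29 with -0.16 and GRX480 with -0.12. None of them passed, with limma adjusted p between 0.445 and 0.659. After median centring 2 of the 11, AT1G10585 and GSTF3, were still lower in all 6 pairs, and after quantile normalization 2, AT1G10585 and STZ. The 1 probe higher in all 6 pairs, probe 159, is unnamed here and differed by 0.19.

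Of the unnamed probes, those with the smallest p were 191 and 375, which also had the smallest p on the array. Probe 191 read 3.17, 3.24 and 3.60 in mpk11 at 30 min and 3.55, 3.54 and 4.10 in Col. The 3 h values were 3.25, 3.00 and 3.28 in mpk11 and 3.52, 3.33 and 3.70 in Col. It was lower in mpk11 in all 6 pairs and without overlap at 3 h. The means were 3.26 ± 0.20 in mpk11 and 3.63 ± 0.26 in Col, a difference of -0.37 (SE 0.077; limma adjusted p = 0.298). Probe 375, a bright probe, averaged 8.42 ± 0.36 in mpk11 and 8.81 ± 0.27 in Col, a difference of -0.39 (SE 0.087; limma adjusted p = 0.298), and was lower in mpk11 in all 6 pairs.

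The arrays of the 2 times were then taken apart. At 30 min limma called 0 probes (0%), with a smallest adjusted p of 0.314. Without adjustment 51 probes had a p below 0.05, 47 lower and 4 higher in mpk11, against 21 lower and 18 higher after median centring and 25 lower and 21 higher after quantile normalization. Leaving out a set or pair gave 21 to 107 such probes, with 27 without the 30 min set 1 pair and 91 without the 30 min set 2 pair. At 3 h limma also called 0 probes (0%), with a smallest adjusted p of 0.376, and 20 probes had an unadjusted p below 0.05, 15 lower and 5 higher in mpk11. There the scaling turned the split, to 4 lower and 8 higher after median centring and 6 lower and 13 higher after quantile normalization. Leaving out a set or pair gave 3 to 49 such probes at 3 h, with 3 without the 3 h set 1 pair and 46 without the 3 h set 2 pair. The median half-width of the 95% intervals was 0.338 at either time, wider than with both times together. At 30 min 47 probes (8.16%) had all mpk11 arrays below all Col arrays and 10 (1.74%) had them above. At 3 h these counts were 35 (6.08%) and 14 (2.43%). After median centring they were 14 below and 28 above at 30 min and 10 below and 17 above at 3 h, and after quantile normalization 22 and 19 at 30 min and 11 and 19 at 3 h.

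No gene was among the 5 named ones with the smallest p at both times. GSTF3 came first at 30 min, with -0.67, against -0.14 at 3 h. ATU2AF65A (AT4G36690), a splicing factor gene, was second. It read 5.85, 5.87 and 5.42 in mpk11 and 5.17, 5.35 and 5.12 in Col at 30 min, with no overlap, a difference of 0.50 (95% interval 0.23 to 0.78; limma adjusted p = 0.314). The 3 h difference was -0.10.

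AT3G09440, which encodes an HSP70 chaperone, read 4.31, 4.33 and 4.52 in mpk11 and 5.42, 4.74 and 4.93 in Col at 30 min. All mpk11 arrays were below all Col arrays, by -0.64 on average (95% interval -0.999 to -0.28; limma adjusted p = 0.314), and the widest gap was in set 1. Over sets 2 and 3 alone the 30 min difference was -0.41. At 3 h the arrays gave 3.77, 3.81 and 3.78 in mpk11 and 3.63, 3.61 and 3.80 in Col, and the difference was 0.11.

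AT2G32150, a gene of the haloacid dehalogenase-like hydrolase family, read 4.78, 5.09 and 5.11 in mpk11 and 5.30, 5.40 and 5.76 in Col at 30 min, a difference of -0.50 without overlap (limma adjusted p = 0.314). At 3 h it read 5.18, 4.92 and 4.71 in mpk11 and 5.10, 4.58 and 4.53 in Col, a difference of 0.20. The sign was thus opposite in all pairs of the 2 times.

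AT3G12390, which encodes a subunit of the nascent polypeptide-associated complex that binds new chains at the ribosome, differed by 0.60 at 30 min (limma adjusted p = 0.402) and by -0.14 at 3 h. At 30 min it read 6.62, 6.97 and 6.99 in mpk11 and 5.47, 6.70 and 6.63 in Col. The groups overlapped, and the Col array of set 1 was the low one. Over sets 2 and 3 alone the 30 min difference was 0.32.

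At 3 h the smallest p among the named genes belonged to AT2G43620, a chitinase gene. It read 3.27, 2.91 and 3.10 in mpk11 and 3.81, 3.04 and 3.98 in Col at that time, so each mpk11 array was below the Col array of its pair while the groups overlapped. Its difference was -0.52 at 3 h (95% interval -0.94 to -0.10; limma adjusted p = 0.896) and -0.08 at 30 min. AT-HF with 0.36, AT2G36690 with -0.30, BIP1 with 0.32 and PDF1.2 with -0.61 followed, all with the same adjusted p.

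BIP1 (AT5G28540), the HSP70 chaperone of the endoplasmic reticulum, read 5.79, 5.57 and 5.24 in mpk11 and 6.07, 5.71 and 5.71 in Col at 30 min, a difference of -0.30. The 3 h values were 5.24, 5.04 and 5.42 in mpk11 and 4.88, 4.61 and 5.25 in Col, a difference of 0.32. Like AT2G32150, it was lower in mpk11 in all 3 pairs at 30 min and higher in all 3 at 3 h. Such a change of sign was seen in 19 of the 576 probes (3.3%), counted in either order of the times.

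The change between the times was itself tested. No probe passed for the genotype difference at 3 h minus that at 30 min (0 of 576, 0%; smallest limma adjusted p = 0.705), and 28 had an unadjusted p below 0.05. For AT2G32150 this change was 0.70 (95% interval 0.30 to 1.10), for AT3G09440 0.75 (0.24 to 1.25), for BIP1 0.61 (0.22 to 1.01) and for ATU2AF65A -0.60 (-0.99 to -0.21), each with an adjusted p of 0.705. Across the 576 probes the differences at the 2 times had the same sign in 282, 49.0%, and their correlation over probes was -0.106 (Pearson) and -0.0903 (Spearman). These are descriptions over probes that share arrays.

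**Figure D3:**
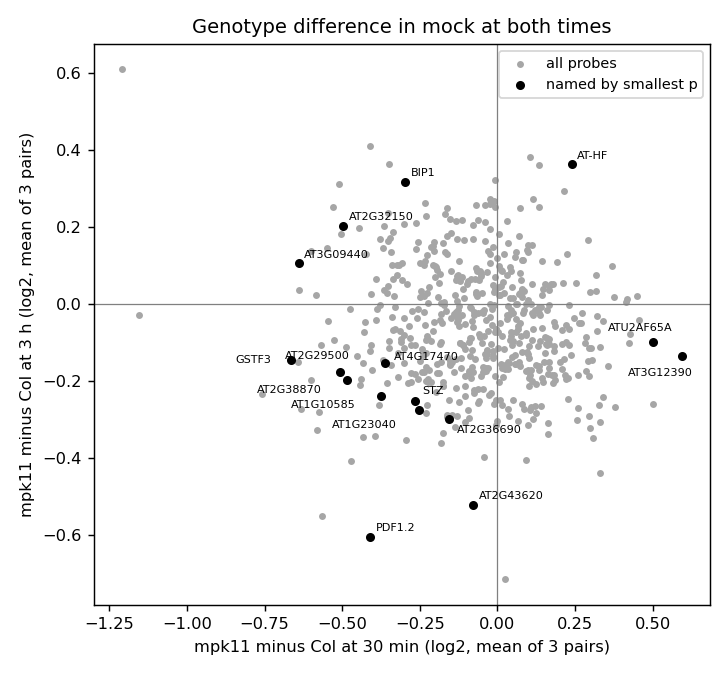
Differences mpk11 minus Col in mock (log2, means of 3 pairs) of all 576 probes, at 30 min on the horizontal axis and at 3 h on the vertical axis. Black points are the genes named by smallest p at either time or both; AT2G32150, AT3G09440 and BIP1 lie in the upper left corner of the axes, and PDF1.2 lies low at both times, at -0.41 and -0.61.

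Genes were then taken by their roles. The first set were genes that flg22 is known to switch on early, and their unelicited level is described here. All 6 measured members had a lower mean in mpk11, as they did under median centring and quantile normalization, and 0 of them passed. The median of the 6 was -0.16 against -0.05 over all probes, of which 65.6% were lower. After median centring the median of the 6 was -0.10 and after quantile normalization -0.09. STZ had -0.26, WRKY22 (AT4G01250) -0.20, AT4G27280, an EF-hand calcium-binding protein gene, -0.16, WRKY29 (AT4G23550) -0.16, AT1G26380, an oxidase gene of indole metabolism, -0.12 and WRKY53 (AT4G23810) -0.08. Leaving out a set or pair moved 3 of these widely: AT4G27280, whose 3 h set 2 pair stood at 0.81, between -0.36 and -0.0077, AT1G26380 between -0.24 and -0.03 and WRKY53 between -0.16 and 0.05. Their probes had mean log values between 1.81 and 3.11, 4 of the 6 within the dim class, in which the lean to lower values was largest, and the part of this in the list's values was not tested.

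WRKY29 is shown array by array. The 30 min values were 2.77, 2.81 and 2.86 in mpk11 and 3.10, 3.01 and 3.01 in Col. At 3 h the arrays gave 2.88, 2.89 and 3.00 in mpk11 and 2.92, 2.93 and 3.19 in Col. The 30 min groups did not overlap, all 6 pairs were lower in mpk11, and the difference was -0.16 (95% interval -0.34 to 0.02; limma adjusted p = 0.583). WRKY22 was lower in mpk11 in 5 of 6 pairs, at 2.53, 3.10 and 2.70 in mpk11 and 2.90, 3.35 and 3.01 in Col at 30 min. The groups overlapped there, and set 2 was high in both genotypes.

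The WRKY transcription factors added WRKY6 to these 3. The 4 had a median of -0.12, and all 4 had a lower mean in mpk11, except that WRKY6, at -0.04, turned to 0.02 after median centring and 0.04 after quantile normalization. The list median was -0.06 and -0.04 under these scalings, and none passed. Of the 4 genes, 2 were in the dim class and 2 in the middle class. All 5 calcium sensor genes, of which AT4G27280 is also in the early flg22 list, had a lower mean in mpk11 (median -0.16, 0 passed), except that AT5G39670, at -0.02, turned to 0.04 and 0.05 under those scalings and to 0.04 without the 30 min set 1 pair. The list median was -0.10 and -0.09 under the scalings. Of the 5 genes, 1 was in the dim class, 2 in the middle class and 2 in the bright class. CML42 (AT4G20780), a calmodulin-like protein gene, had -0.21 with an interval of -0.43 to 0.01, and -0.09 without set 3.

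The products that act against microbes and insects, chitinases, defensins and a proteinase inhibitor, had the lowest median of the lists with more than 2 members, -0.28. Of the 6 members 5 had a lower mean in mpk11 and 0 passed, and the median was -0.21 after median centring and -0.22 after quantile normalization, where CHI turned to 0.01. PDF1.2, AT2G38870 and AT2G43620 have been described. The chitinase genes CHI (AT2G43570) and AT4G01700 had -0.09 and 0.03. Without the 30 min set 1 pair the median was -0.25. In this list 4 genes were in the middle class and 2 in the bright class.

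The 3 class III peroxidase genes, whose secreted enzymes act in the cell wall, had -0.23 (AT5G64120), -0.16 (AT5G19890) and -0.11, and 0 passed. Their median of -0.16 was -0.09 under either other scaling. AT5G64120 rested on the 3 h set 3 pair, at -0.94, and had -0.08 without it and -0.06 without set 3. AT5G19890 ran between -0.28 and -0.04 as sets or pairs were left out. Of the hormone markers, GRX480 (AT1G28480), a glutaredoxin gene of salicylic acid signalling, read 2.61, 2.46 and 2.70 in mpk11 at 30 min and 2.72, 2.55 and 2.75 in Col. On the 3 h arrays it read 2.50, 2.38 and 2.57 in mpk11 and 2.64, 2.61 and 2.69 in Col. It was lower in mpk11 in all 6 pairs, by -0.12 (95% interval -0.29 to 0.05; limma adjusted p = 0.659), with overlap at 30 min and none at 3 h. UGT76B1 (AT3G11340), a glycosyltransferase gene that acts on salicylic acid and isoleucic acid, had 0.03, with -0.17 at 30 min and 0.23 at 3 h.

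The heat shock and protein folding genes, whose products keep other proteins folded, had unlike medians at the 2 times. Of the 5 measured, 4 had a lower mean in mpk11 over both times, under either scaling too (median -0.20, 0 passed). At 30 min the median was -0.30, and at 3 h 0.05. Without the 30 min set 1 pair the median over both times was -0.10, so that 1 pair moved the value by more than 1.5 times. Hsp70-2 had -0.20, and AT5G48570, a peptidyl-prolyl isomerase gene, -0.12, or -0.04 without the 30 min set 1 pair. CCS, the copper chaperone of superoxide dismutase, which the list of chaperones by name holds beside Hsp70-2, had -0.09.

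The remaining lists lay nearer to zero, and single arrays moved them. The 7 glycosyltransferase genes had a median of -0.02, with 4 lower and 3 higher, and the median turned to 0.05 after median centring, 0.003 after quantile normalization and 0.02 without the 30 min set 1 pair. UGT74B1, which acts in glucosinolate synthesis, had 0.03, UGT76E12 -0.02 and IAGLU, which acts on the auxin indole-3-acetic acid, -0.08. The 6 genes of sulphur, tryptophan and glucosinolate metabolism had 2 lower and 4 higher with a median of 0.04, and 1 lower after median centring or quantile normalization. Without the 30 min set 1 pair the direction turned, with 4 lower and a median of -0.07. The sulphite reductase gene SIR had -0.15 and the glucosinolate transporter gene GTR1 0.13, against -0.04 and 0.02 without that pair. The genes of histone H3 and tubulin had 0 lower and 4 higher of 4, with a median of 0.04. The values ran between 0.01 for AT1G09200 and 0.10 for AT5G65360, both histone H3 genes. Without the 30 min set 1 pair the median was 0.10. As sets or pairs were left out, AT1G09200 ran between -0.15 and 0.14 and AT5G65360 between -0.10 and 0.37. All 4 genes were in the bright class, in which 56.3% of the probes were lower, against 65.6% of all probes. The part of level in the differences between lists was not tested. The 3 genes of the vacuolar ATPase, the proton pump of the vacuole, had -0.14 (AT2G16510), 0.00 (AT4G32530) and 0.03, a median of 0.00, or 0.07 without the 30 min set 1 pair. None of these genes passed. The lists of receptor kinases and of translation had 0 members among the named probes.

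**Figure D4:**
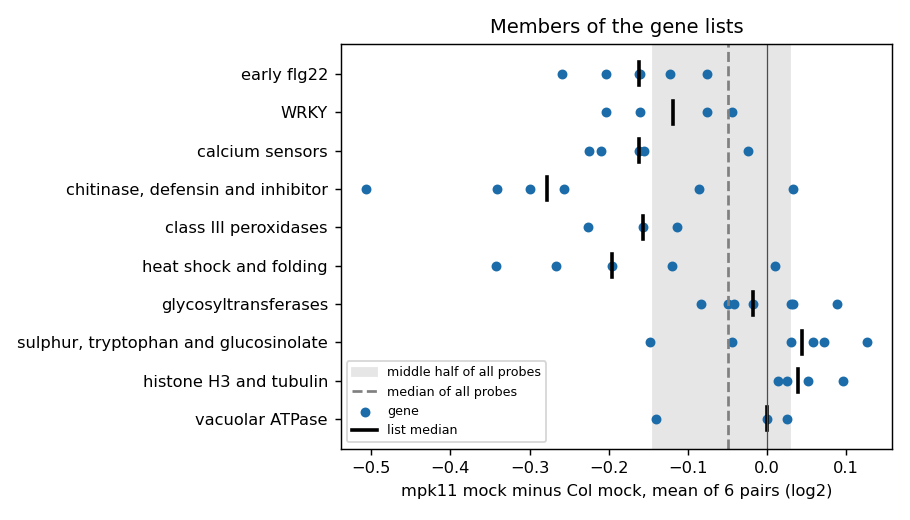
Differences mpk11 mock minus Col mock (log2, means of 6 pairs) of the members of 10 gene lists; each point is 1 gene and each black bar the median of its list. The grey band spans the quartiles of all probes, -0.14 and 0.03, and the dashed line their median of -0.05. The first 5 lists have medians between -0.28 and -0.12. All lists but early flg22 and WRKY were added after the probe names were known.

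**Figure D5:**
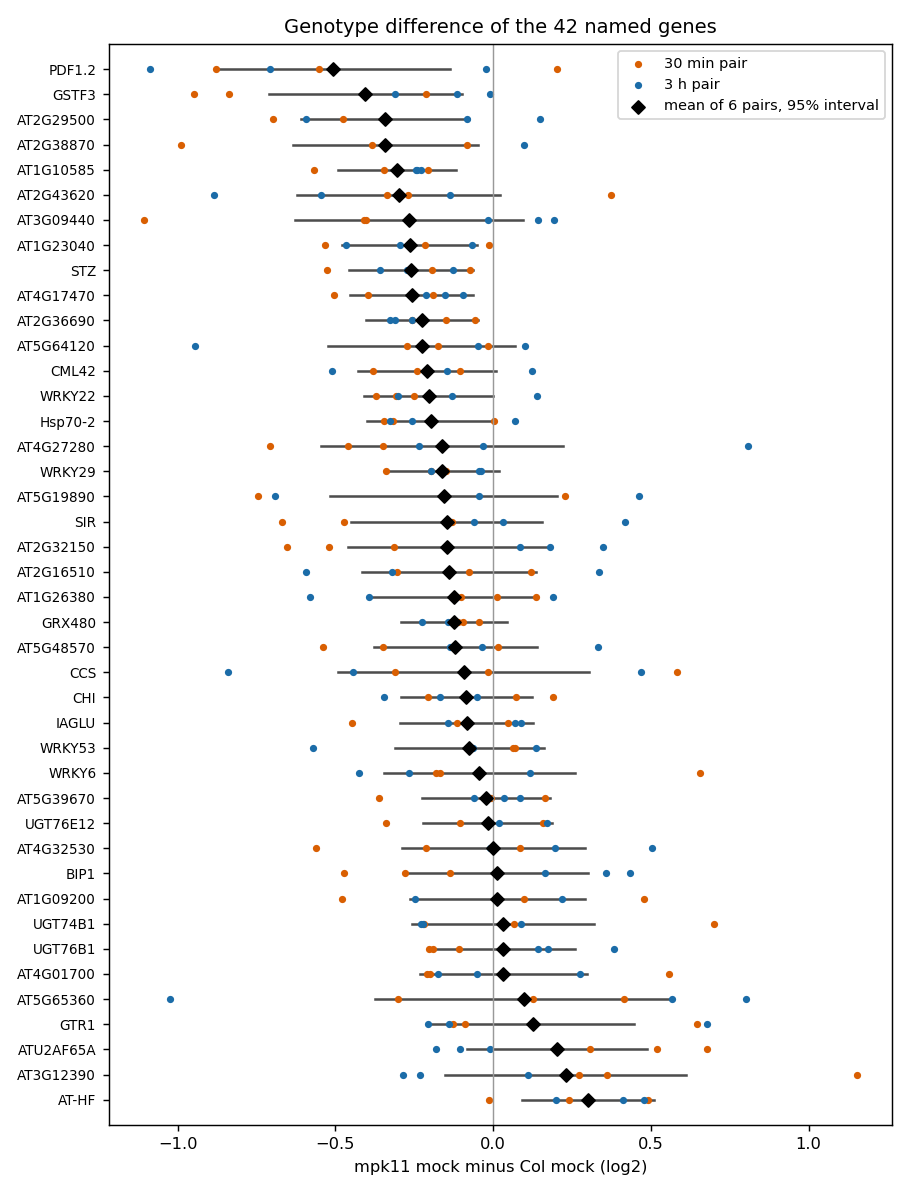
Differences mpk11 mock minus Col mock (log2) of the 42 named genes, in each of the 3 pairs at 30 min (orange) and 3 h (blue), with their mean (diamond) and its 95% interval. The intervals of AT-HF and of 9 genes lower in mpk11 leave out zero before adjustment, and the pairs of most other genes lie on both sides of it.

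The arrays with flg22 gave a second look at the same genes. There the probes leaned less to one side: 313 (54.3%) were lower in mpk11, the median difference was -0.01, and 13 (2.26%) were lower in all 6 pairs. Limma called 0 probes with flg22 (0%; smallest adjusted p = 0.488), with 46 at an unadjusted p below 0.05. Of the 31 probes lower in all 6 mock pairs, 22 were lower on average with flg22, 0 were lower in all 6 pairs there, and 1 had an unadjusted p below 0.05. Their median difference was -0.07 with flg22.

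PDF1.2 and AT2G29500 were the genes of the 10 whose flg22 difference was largest in size, and both had the same sign as in mock. PDF1.2 differed by -0.59 with flg22 (95% interval -1.05 to -0.12; limma adjusted p = 0.488) and was lower in mpk11 in 4 of 6 pairs. AT2G29500 differed by -0.34 with flg22 (95% interval -0.58 to -0.10; limma adjusted p = 0.488) and was lower in 6 of 6 pairs. Neither passed. The other genes of the 10 had flg22 differences between -0.16 and 0.19, among them AT-HF with 0.19, AT2G36690 with -0.16, AT4G17470 with -0.13, GSTF3 with -0.11, AT1G10585 with -0.02 and AT2G38870 with 0.13.

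AT2G43620, the chitinase gene that had -0.30 in mock, or -0.18 without the 3 h set 3 pair, was higher in mpk11 in all 6 pairs with flg22, by 0.27 (95% interval 0.01 to 0.52; limma adjusted p = 0.572). The difference between the treatments, mock minus flg22, was -0.57 (95% interval -0.93 to -0.21; limma adjusted p = 0.573). It includes the mock values by which this gene was named. For no probe did the genotype difference in mock differ from that with flg22 past the threshold (0 of 576, 0%; smallest limma adjusted p = 0.512), while 24 had an unadjusted p below 0.05. Without the set 2 arrays 1 unnamed probe passed, at -0.88 (limma adjusted p = 0.0477). The lists of early flg22 genes, calcium sensors and chitinases, defensins and inhibitors had medians of -0.16, -0.16 and -0.28 in mock. With flg22 these medians were 0.03, 0.02 and 0.02. The WRKY genes and the class III peroxidases, at -0.12 and -0.16 in mock, stayed below zero with flg22, at -0.04 and -0.08. Such changes were not tested for the lists. The heat shock and folding list had -0.28 with flg22, beside -0.20 in mock. The medians of single arrays were 3.34 to 3.76 in mock, against 4.02 to 4.17 on the flg22 arrays, and the part of this in the changes between treatments was not tested.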

How the data were processed

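RNA labelled with 1 dye, Alexa555, was hybridised to a spotted array, and spots of poor quality were found with a Cy5-labelled oligonucleotide and removed, per the labels. The authors deposited 1 value per probe and array on a log scale, taken as log2. The sources used here do not give the base of the log, the background correction or the scaling between arrays. The table held 0 missing values, and no array duplicated another (correlations of the mock arrays 0.911 to 0.991). RefSeq (TAIR10.1) gave the symbols of 180 named genes, and 1 kept the name of the array.

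Groups came from the labels. The tests used limma 3.58.1 in R 4.3.3 on the 12 mock arrays, with the 6 pairs as a fixed block, empirical Bayes moderation and Benjamini-Hochberg adjustment over 576 probes, with a threshold of 0.05. A second fit gave an effect per time, and a fit of all 24 arrays compared mock with flg22. No probe was filtered. Deviations from the group means of same-numbered arrays correlated at 0.165 to 0.523 in the 6 pairs, all over 0.1, and the numbers were taken as pairs. Arrays of unlike number are not compared here, so these values do not establish the pairing. The limma fit of the pooled comparison was tested on simulated data with independent normal noise, and the other steps were not tested in this way.

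Genes named are the 10 named probes with the smallest p over both times, the 5 at each time, the 4 with the largest difference of 1 sign in all 6 pairs, all members of the short pathway lists and 2 of each other list. Further genes, and all unnamed probes, were chosen after their values were seen. The comparison, lists and rules were chosen with earlier results of these data known, and 8 lists were added after the probe names were known. A search of promoters for motifs was planned and not run, as no promoter sequences were used here. Alternatives were other scalings, dim probes left out, a trended robust prior, other blocks and left-out sets or pairs.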

Additional observations from a re-analysis of the deposited data

How the results depend on the processing

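The count of 0 probes past the threshold over both times was kept under every alternative run except 1. Without the 3 h set 2 pair limma called 2 probes, both unnamed here and both lower in mpk11, by -0.55 and -0.64 (adjusted p = 0.0461). The cause was not tested. Leaving out pairs or sets therefore gave 0 to 2 calls. At an unadjusted p below 0.05 the count was 43, against 24 after median centring, 25 after quantile normalization, 29 with the dimmest 25% of probes left out, 52 with a trended and robust prior and 18 to 86 with a set or pair left out. For the pairing, the fit with no replicate block gave 21 and a smallest adjusted p of 0.513, and the set number as replicate block gave 48. The block changed no call. No alternative gave a call at 30 min, at 3 h or for their difference. The change between the times had 28 probes at an unadjusted p below 0.05, against 12 to 68 with a set or pair left out. The array medians differed by -0.0081 without set 3. For mock minus flg22, 1 unnamed probe (-0.88, adjusted p = 0.0477) passed without set 2 and 0 otherwise; the cause was not tested. The mean of all probes in place of the array median gave -0.061 with an exact p of 0.03125.

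The other scalings and the left-out sets and pairs can move the mean difference of a gene, while the other alternatives leave it as it is. Of 462 such values of the 42 named genes, 421 kept their sign and 41 reversed, and 12 genes kept within 1.5 times of their value whichever set or pair was left out. Median centring turned WRKY6 to 0.019, UGT76E12 to 0.045 and AT5G39670 to 0.040. Quantile normalization turned WRKY6 to 0.042, CHI to 0.012, UGT76E12 to 0.0021, IAGLU to 0.0032 and AT5G39670 to 0.050. Leaving out a set or pair reversed genes with small differences, with ranges of -0.15 to 0.14 for AT1G09200, -0.40 to 0.15 for CCS, -0.15 to 0.16 for UGT74B1, -0.18 to 0.042 for WRKY6, -0.32 to 0.015 for AT2G16510, -0.14 to 0.010 for CHI, -0.038 to 0.080 for UGT76B1, -0.071 to 0.061 for UGT76E12, -0.077 to 0.14 for AT4G01700, -0.16 to 0.050 for WRKY53, -0.10 to 0.11 for AT4G32530, -0.074 to 0.11 for BIP1, -0.098 to 0.046 for AT5G39670 and -0.10 to 0.37 for AT5G65360. The cause was not tested. The values without the 30 min set 1 pair and the scaled list medians, overlap and all-pairs counts were added after seeing the data. Signal over background was not used here, so what it limits is unknown, and the number of arrays limits the precision.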
